A study of Mus musculus with 12 samples.

Results

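The 7 genes described here are the early growth response genes Egr1, Egr2 and Egr3, the corepressor genes Nab1 and Nab2, the transcription factor gene Srf and the immediate-early gene Ier2. They were picked by symbol from the 43432 gene identifiers of the count table, and all 7 were present. The set was chosen with the data known, since it was selected on Egr1, which differed between genotypes after the run. The values of that comparison are therefore given as a description, with no test. The counts come from RNA sequencing of the gastrocnemius, a calf muscle, of male mice. Each genotype, WT and MKO, was sampled at rest (sedentary) and after a run (exercised), giving 4 groups of 3 libraries. WT mice carried the fl/fl alleles, and MKO mice were labelled cFeimin MKO, a knockout of cellular Feimin. The run lasted 90 min, at a speed set to 60% of each animal's maximum. The sources used here do not give age, the Cre driver behind MKO or the time from the end of the run to sampling.

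EGR proteins are zinc finger transcription factors whose genes are switched on within minutes of many stimuli and whose mRNAs are short-lived. Growth factor or calcium signals reach these genes through the ERK kinases, which act on ETS-family partners of serum response factor (SRF) at DNA elements called CArG boxes. NAB proteins bind EGR factors and repress the transcription of their targets, in part through the NuRD chromatin complex. NAB2 is itself made after EGR induction and closes a negative feedback loop. IER2 is a small nuclear protein whose gene is also a fast SRF target. In muscle, contraction is a known inducer of Egr1.

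Counts per library totalled 14324010 to 14563501, and a gene with 3 counts corresponded to 0.181 to 0.222 CPM (counts scaled to library size and composition). B230219D22Rik, taken from general knowledge to be the Feimin gene, stood at 22.6 ± 1.41 CPM (mean ± SD, n = 3) in WT muscle at rest, 25.4 ± 4.15 in WT after the run, 4.92 ± 1.25 in MKO at rest and 4.06 ± 0.534 in MKO after the run, lower where the labels say MKO. The 10 muscle fibre markers summed to 117000 to 169000 CPM in every library, and of 7 T cell markers 4 (Cd3d, Cd3g, Cd8a and Trac) were at 0 in all 12. The libraries that stood farthest from the others of their groups were replicate 3 of sedentary MKO, replicate 5 of exercised WT and replicate 4 of exercised MKO. Results that rest on them are given with and without them.

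The run raised 3 of the 6 tested genes in WT muscle (Egr1, Nab2 and Ier2) and 2 of 6 in MKO muscle (Egr1 and Ier2). Among all 14486 genes tested, 8.24% passed in WT (edgeR, adjusted p under 0.05), 4.14% as higher and 4.10% as lower. In MKO muscle 4.05% passed, 2.29% as higher and 1.75% as lower. With total counts alone as library size, the split over all genes moved from 599 higher and 594 lower to 469 and 863 in WT, and from 332 and 254 to 259 and 596 in MKO, as that scaling shifted the median of all genes by -0.10 and -0.15 on the log2 scale. Exercised libraries lay wholly above sedentary ones for 4 of the 6 genes in WT (Egr1, Egr2, Nab2 and Ier2) and for 4 in MKO (Egr1, Nab2, Srf and Ier2). Over all genes 27.3% of WT and 21.7% of MKO comparisons had groups that did not overlap, in either direction. Egr3 had too few counts to be tested. These comparisons use the exercised libraries on which Egr1 was chosen, so its place among them is not independent of that choice. In bulk tissue, fewer cells of a type and less RNA per cell cannot be told apart.

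**Figure D1:**
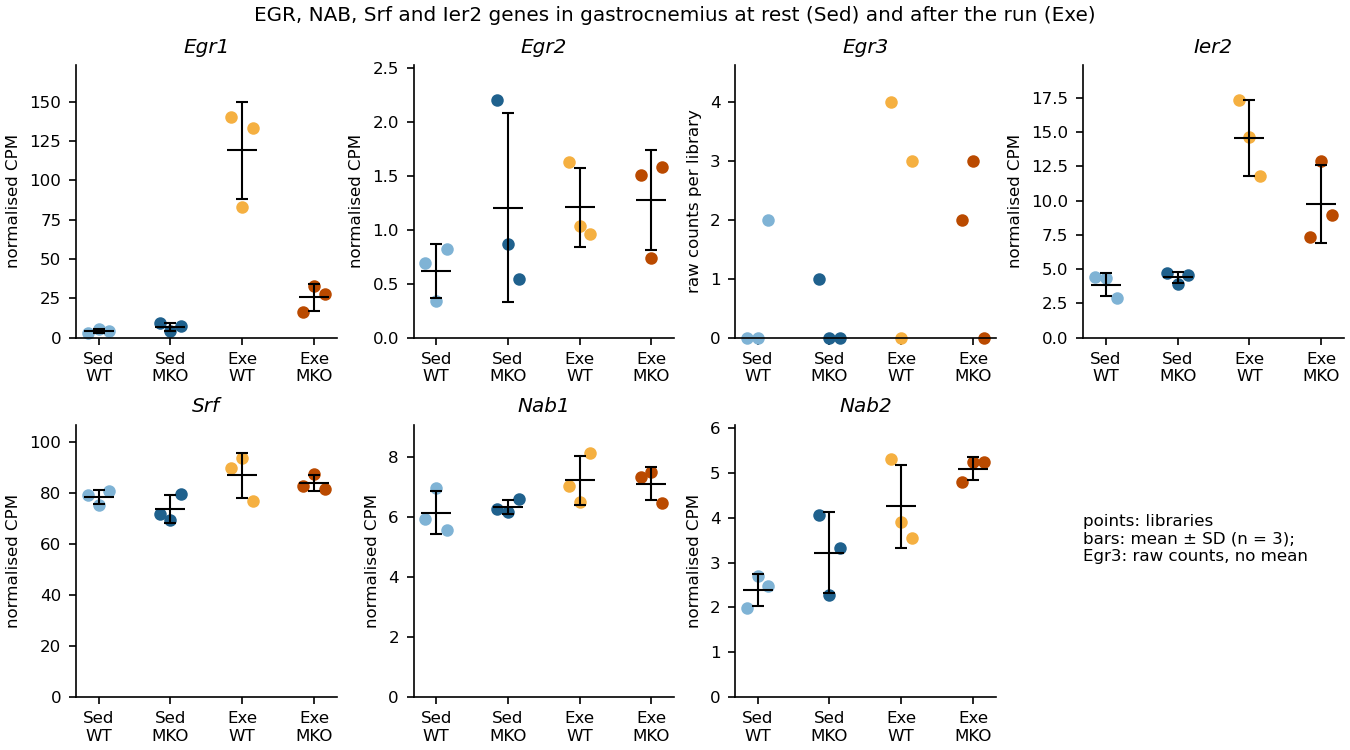
Normalised level (CPM) of the 7 genes in each of the 12 libraries (raw counts for Egr3), by group; points are libraries, lines are group means with bars of 1 SD (n = 3; none for Egr3), and each axis starts at 0. Egr1 lies between 83.3 and 140.3 CPM in exercised WT muscle and between 16.1 and 33.0 in exercised MKO muscle, and Srf stays between 69.3 and 93.9 CPM throughout.

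Egr1 (ENSMUSG00000038418; chromosome 18, 34859823 to 34864984, plus strand, GRCm38.p6) encodes the founding EGR factor. In sedentary WT muscle its level was 2.82, 5.13 and 3.98 CPM in replicates 1, 3 and 4. In sedentary MKO muscle it was 8.99, 4.08 and 7.20 CPM in replicates 1, 2 and 3. Both resting groups were low and overlapped. After the run Egr1 stood at 140.3, 83.3 and 133.6 CPM in WT replicates 3, 4 and 5, from 1128 to 1982 counts. In exercised MKO replicates 1, 2 and 4 it stood at 16.1, 33.0 and 27.5 CPM, from 235 to 446 counts. The exercised groups were thus apart from each other, and each lay above its own resting group without overlap. The run raised Egr1 29.9-fold in WT, a log2 fold change of 4.90 ± 0.37 (SE; edgeR, adjusted p = 2.11e-05). It raised Egr1 3.77-fold in MKO, at 1.91 ± 0.34 (edgeR, adjusted p = 0.00727). Without the 3 outlying libraries the rise in WT was 4.81 (edgeR, adjusted p = 0.000611). The rise in MKO was 1.91 again without them but then missed the threshold (edgeR, adjusted p = 0.0756).

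Between the exercised groups, which gave the selection, the mean of Egr1 was 119.1 ± 31.1 CPM in WT and 25.5 ± 8.64 in MKO (SD, n = 3). The log2 difference, MKO minus WT, was -2.22 ± 0.31, and with each of the 6 exercised libraries left out in turn it lay between -2.46 and -1.98. The difference between the responses to the run was -2.99 ± 0.48 on the same scale. Of all genes, 0.0345% (5 of 14486) passed between the exercised groups, or 108 without exercised MKO replicate 2, and 23.1% had groups that did not overlap. For the difference between responses 0% passed (edgeR, 0 of 14486, with 534 at an unadjusted p under 0.05, 3 with DESeq2 and 4 with limma-voom). Among the 6 tested members Egr1 was the 1 whose exercised groups did not overlap.

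Other cell type markers moved beside this. The 10 macrophage markers, of which 9 were tested, summed to 48.3 to 59.2 CPM in WT and 63.1 to 150 in MKO muscle after the run, and the 7 tendon markers, 5 of them tested, to 42.3 to 47.6 and 63.2 to 98.3. Those 2 of 11 marker lists lay higher in exercised MKO without overlap, and the other 9 overlapped. The lowest macrophage sum among the exercised MKO libraries, 63.1 CPM, was in replicate 2, which had the highest Egr1 of that group. In each of the other groups the order of the libraries matched only in part. In exercised WT and in sedentary WT, replicate 3 had both the highest macrophage sum and the highest Egr1 of its group. The lowest macrophage sum and the lowest Egr1 fell on different libraries in both WT groups. In sedentary MKO, replicate 2 had the lowest of both, while replicate 3 had the highest macrophage sum and replicate 1 the highest Egr1. Between rest and run in WT, macrophage sums went from 75.1 to 108 CPM down to 48.3 to 59.2, and fibro-adipogenic sums from 486 to 613 down to 294 to 321. Between rest and run in MKO, fibro-adipogenic sums went from 648 to 656 CPM down to 314 to 440, red blood cell sums from 1360 to 2280 down to 513 to 837. Smooth muscle and pericyte sums and adipocyte sums were also lower there, and muscle fibre sums were higher (125000 to 139000 and 142000 to 162000), each without overlap. Endothelial, satellite cell, Schwann cell and T cell sums overlapped between the groups in all 4 of these comparisons. The part of these cells in the Egr1 values was not tested.

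Egr2 (ENSMUSG00000037868; chromosome 10, 67535475 to 67542188, plus strand) encodes the EGR factor best known for controlling myelination in Schwann cells, the glia of peripheral nerve. It was a low-count gene, with 5 to 33 counts per library. Its level was 0.687, 0.337 and 0.823 CPM in sedentary WT and 1.63, 1.03 and 0.959 in exercised WT muscle. Each exercised WT library thus lay above each sedentary one, yet the log2 fold change of 0.97 ± 0.54 did not pass (edgeR, adjusted p = 0.342), and its 95% interval ran from -0.28 to 2.21. In MKO muscle the levels were 2.2, 0.869 and 0.544 CPM at rest and 1.51, 0.741 and 1.58 after the run, and the groups overlapped. That difference was 0.10 ± 0.48 (edgeR, adjusted p = 0.965), and it turned to -0.43 without the 3 outlying libraries.

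Egr2 levels lay beside those of the Schwann cell markers. The 9 markers, among them the myelin genes Mbp and Prx, summed to 102, 76.2 and 183 CPM in sedentary WT replicates 1, 3 and 4 and to 401, 99.3 and 86.9 in sedentary MKO replicates 1, 2 and 3. After the run they summed to 224, 232 and 90.0 CPM in WT and to 309, 69.0 and 260 in MKO. In all 4 groups the library with the lowest marker sum also had the lowest Egr2, and sedentary MKO replicate 1 was the highest of all 12 libraries in both. The highest sum and the highest Egr2 fell on the same library in the sedentary groups but not in the exercised ones, where replicate 4 of WT and replicate 1 of MKO had the highest sums and replicate 3 of WT and replicate 4 of MKO the highest Egr2. The part of nerve tissue in the Egr2 values was not tested.

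**Figure D2:**
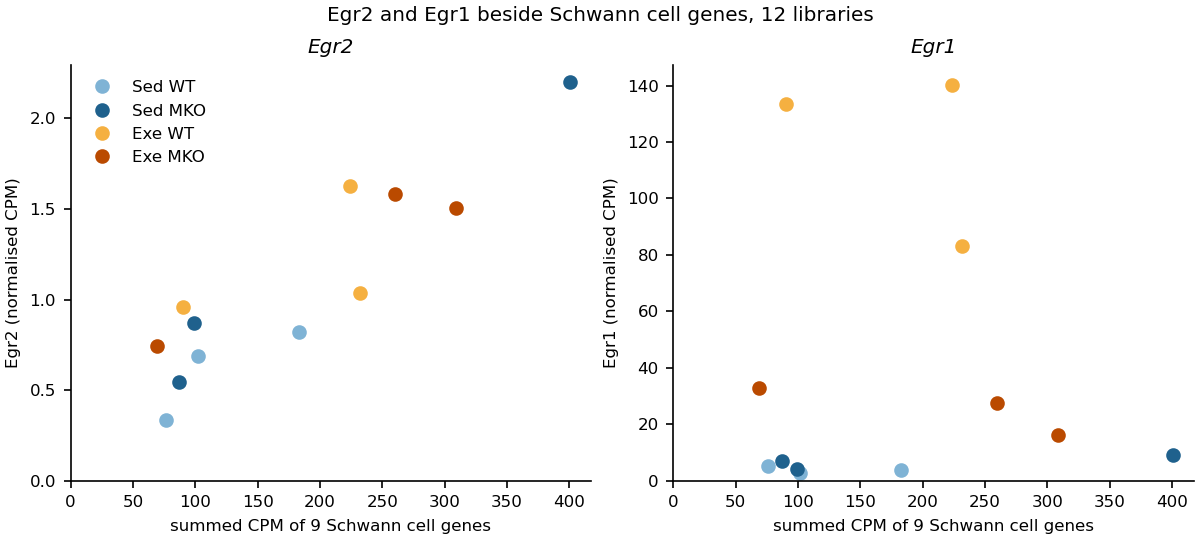
Level of Egr2 (left) and Egr1 (right), in CPM, against the summed level of 9 Schwann cell markers (CPM) in the 12 libraries, with colours for the groups. On the left, sedentary MKO replicate 1 lies farthest out on both axes, at 401 CPM of markers and 2.2 CPM of Egr2, and on the right it lies among the low resting libraries, at 8.99 CPM of Egr1.

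Egr3 (ENSMUSG00000033730; chromosome 14, 70077203 to 70082614, plus strand), which muscle spindles need for their development, was at the limit of detection. It had 0, 0 and 2 counts in sedentary WT, 1, 0 and 0 in sedentary MKO, and after the run 4, 0 and 3 in WT and 2, 3 and 0 in MKO muscle. Every group held a library at 0, and no difference was detectable at this depth. Egr4, the other member of the family, had 0 counts in all 12 libraries, which allows up to 3 counts, or 0.181 to 0.222 CPM. Of the EGR genes Egr1 thus held the most counts in every group. In WT it had 4921 after the run, against 50 of Egr2 and 7 of Egr3, and 175 at rest, against 27 and 2. In MKO it had 1063 after the run, against 54 and 5, and 315 at rest, against 55 and 1.

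Ier2 (ENSMUSG00000053560; chromosome 8, 84661331 to 84662852, minus strand, 1 exon) rose in both genotypes. Its level was 4.40, 4.32 and 2.88 CPM in sedentary WT and 17.3, 14.6 and 11.8 in exercised WT muscle. In MKO it was 4.73, 3.94 and 4.54 CPM at rest and 7.33, 12.9 and 8.98 after the run. The groups did not overlap in either genotype. The rise was 3.77-fold in WT, at 1.91 ± 0.23 on the log2 scale (edgeR, adjusted p = 0.000353), and 2.2-fold in MKO, at 1.14 ± 0.23 (edgeR, adjusted p = 0.0151). The call in MKO was lost without sedentary MKO replicate 2 (adjusted p = 0.0721), without exercised MKO replicate 2 (adjusted p = 0.0568, log2 fold change 0.89) and without the 3 outlying libraries (adjusted p = 0.0671). Exercised MKO minus exercised WT was -0.59 ± 0.21, given as a description. Unlike those of Egr1, the exercised groups of Ier2 overlapped, since MKO replicate 2 lay above WT replicate 5.

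Srf (ENSMUSG00000015605; chromosome 17, 46548329 to 46556175, minus strand) encodes the factor that binds CArG boxes in immediate-early and actin cytoskeleton genes. Its level was 79.2, 75.3 and 80.8 CPM in sedentary WT and 90.0, 93.9 and 76.9 in exercised WT muscle, and these groups overlapped. In MKO it was 71.9, 69.3 and 79.8 CPM at rest and 82.8, 87.4 and 81.6 after the run, with no overlap. Neither difference passed, at 0.15 ± 0.09 in WT (edgeR, adjusted p = 0.419) and 0.19 ± 0.09 in MKO (edgeR, adjusted p = 0.391). The 95% intervals of the log2 fold change, -0.07 to 0.37 and -0.03 to 0.41, leave out a change of the size seen in Egr1.

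The promoter sequences of Srf and Egr2 are shown because both hold CArG boxes, the element that SRF binds, and neither mRNA passed with the run. RefSeq windows (GRCm38.p6) were searched for 4 of the 7 genes, Egr2, Nab1, Nab2 and Srf. Egr1 was left out of this search, and no window was at hand for Egr3 and Ier2. The 250 bases before the Srf start (chr17:46556163-46556412, minus strand) and before 1 of 5 Egr2 starts (chr10:67537619-67537868, plus strand) read 5′ to 3′ as follows, with CArG boxes in capitals.
Srf: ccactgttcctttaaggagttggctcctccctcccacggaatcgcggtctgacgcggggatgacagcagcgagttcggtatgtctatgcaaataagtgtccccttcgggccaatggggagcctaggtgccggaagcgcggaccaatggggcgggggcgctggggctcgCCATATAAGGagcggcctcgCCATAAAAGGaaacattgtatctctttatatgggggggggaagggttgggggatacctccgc
Egr2: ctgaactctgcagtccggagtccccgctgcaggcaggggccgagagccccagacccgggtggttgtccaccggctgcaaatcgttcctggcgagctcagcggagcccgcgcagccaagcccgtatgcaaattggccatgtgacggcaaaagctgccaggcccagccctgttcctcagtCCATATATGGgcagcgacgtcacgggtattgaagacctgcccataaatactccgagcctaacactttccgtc
The 2 CArG boxes of Srf began 82 and 62 bases before the start, and that of Egr2 72 bases before it. A CArG box was found in 4 of the 5 Egr2 windows, of which 3 overlap and hold the same box, so there were 2 distinct boxes. Over all genes a box was found in 1.48% of 32536 windows of that length, searched on both strands as CC, any 6 of A or T, then GG. The cyclic AMP response element TGACGTCA, in 1.56% of windows, was in none of the 8 windows of these 4 genes.

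Of the corepressor genes, Nab2 passed in WT and Nab1 in neither genotype; the difference between them was not tested. Nab1 (ENSMUSG00000002881; chromosome 1, 52457294 to 52500679, minus strand) had 5.91, 6.95 and 5.56 CPM in sedentary WT and 7.01, 6.50 and 8.11 in exercised WT muscle. In MKO it had 6.26, 6.15 and 6.59 CPM at rest and 7.33, 7.48 and 6.47 after the run. Sedentary and exercised libraries overlapped in both genotypes, and neither difference passed, at 0.23 ± 0.12 in WT (edgeR, adjusted p = 0.31) and 0.16 ± 0.12 in MKO (edgeR, adjusted p = 0.605).

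Nab2 (ENSMUSG00000025402; chromosome 10, 127660918 to 127668568, minus strand) had 1.99, 2.70 and 2.47 CPM in sedentary WT and 5.31, 3.92 and 3.54 in exercised WT muscle, with no overlap. In MKO it had 4.06, 2.27 and 3.33 CPM at rest and 4.80, 5.26 and 5.25 after the run, also with no overlap. The rise in WT was 1.78-fold, at 0.83 ± 0.22 on the log2 scale (edgeR, adjusted p = 0.036). In MKO the value was 0.66 ± 0.21 and did not pass (edgeR, adjusted p = 0.115). The call in WT lay close to the threshold. It was lost when any of 5 of the 6 WT libraries was left out, with adjusted p from 0.0596 to 0.141, and held without exercised WT replicate 5, at 0.0367. It was also lost with total counts alone (0.0705), with no filter (0.0543) and without the 3 outlying libraries (0.0565, each an adjusted p). Between the exercised groups Nab2 had 0.26 ± 0.20 for MKO minus WT, opposite in sign to Egr1, and its groups overlapped. Exons of Nab2 overlap those of 3 genes on the other strand, and the strand setting of the counting is not given. Of these, Gm16229 (1050 bases shared) had 0 counts in all libraries. Stat6 (40 bases) and Nemp1 (151 bases) had log2 fold changes in WT of -0.19 ± 0.11 and -0.02 ± 0.33, neither past the threshold (edgeR, adjusted p = 0.376 and 0.982).

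The consensus site of EGR factors, GCGTGGGCG, was searched in the same windows on both strands and found in 0.541% of all 32536. The Nab1 window (chr1:52500449-52500698, minus strand) held 2 matches, and those of Nab2, Srf and Egr2 held none. G and C made up 80.8% of the Nab1 window, the highest share of the 8 windows. The rate over all windows was not matched for this share. The Nab2 window (chr10:127666704-127666953, minus strand) lies inside the GENCODE gene, which starts at 127668568 on that strand. The bases before that start were not searched. The Nab1 matches are shown because they sit at the corepressor gene whose mRNA did not pass in either genotype. Each is given with its neighbours as 30 bases, 5′ to 3′ on the strand of the gene, at chr1:52500570-52500599 and chr1:52500538-52500567, with the match in capitals. GENCODE places both inside the first exon of Nab1.
Nab1 site 1: gccccgcggcCGCCCACGCcgggatctgcg
Nab1 site 2: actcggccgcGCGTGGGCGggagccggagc
The first site reads on the opposite strand and the second on the strand of the gene, beginning 141 and 109 bases before the RefSeq start. A match of letters is not evidence of binding.

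At rest, no member passed between MKO and WT (edgeR, 0 of 6, with 0 at an unadjusted p under 0.05, and 0 with DESeq2 and with limma-voom). Over all genes 0.00690% passed, which was B230219D22Rik alone, and 10.3% had groups that did not overlap, against 0 of the 6 members. The log2 differences, MKO minus WT, were 0.76 ± 0.37 for Egr1, 0.95 ± 0.53 for Egr2, 0.43 ± 0.22 for Nab2, 0.19 ± 0.24 for Ier2, 0.05 ± 0.12 for Nab1 and -0.09 ± 0.09 for Srf (edgeR, adjusted p = 1 for each). The 95% interval for Egr1 ran from -0.09 to 1.62 and that for Egr2 from -0.28 to 2.17, so a moderate rise at rest was not detectable with 3 libraries a group. Sedentary MKO replicate 1, the library with the most Schwann cell marker counts, also had the highest Egr1, Egr2 and Nab2 of its group. Without it the values were 0.51 for Egr1, 0.19 for Egr2, 0.23 for Nab2, 0.13 for Ier2, 0.05 for Nab1 and -0.07 for Srf. Beside these values, macrophage sums (116 to 161 CPM) and fibro-adipogenic sums (648 to 656) lay higher in sedentary MKO than in sedentary WT muscle (75.1 to 108 and 486 to 613) without overlap, and their part was not tested.

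**Figure D3:**
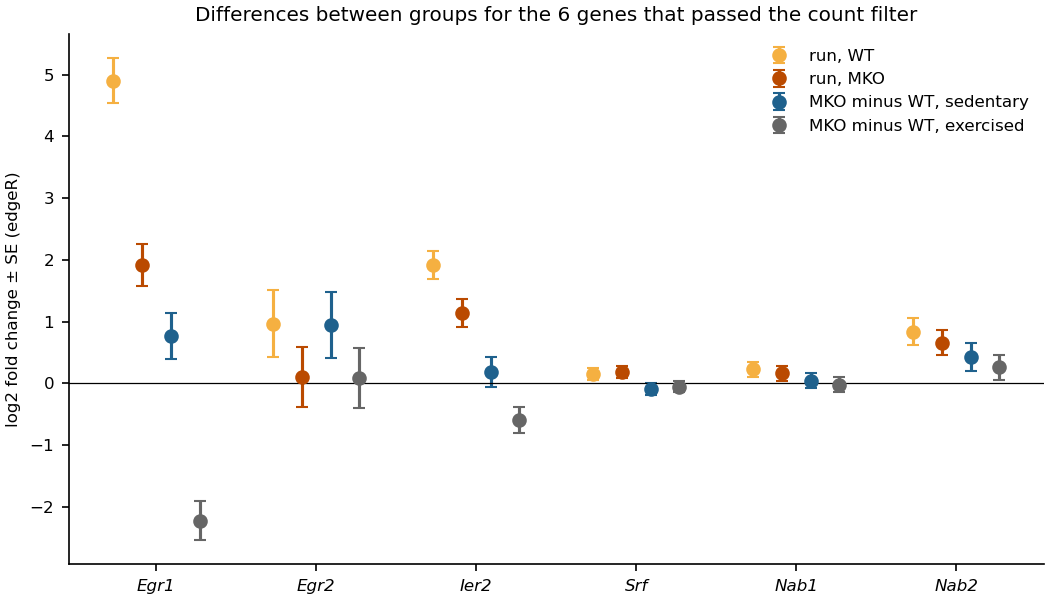
Log2 fold change with its standard error for the 6 tested genes in the 2 comparisons of exercised with sedentary muscle and the 2 comparisons of MKO with WT (the exercised one, in grey, gave the selection); the line at 0 marks no difference. Egr1 stands at 4.90 in WT and 1.91 in MKO with the run and at -2.22 between the exercised genotypes, while Srf and Nab1 lie between -0.09 and 0.23 throughout.

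Per kilobase of exon, which allows levels of different genes to be compared, Srf was the most abundant of the set at rest in WT, at 27.1 ± 0.978 CPM per kb. Ier2 followed at 2.54 ± 0.561, Nab1 at 1.5 ± 0.176, Egr1 at 0.886 ± 0.257, Nab2 at 0.812 ± 0.122 and Egr2 at 0.181 ± 0.0738 CPM per kb. Egr1 and Nab2 did not differ beyond their spread. After the run in WT, Egr1 moved up to the second place, at 26.6 ± 6.94 CPM per kb, and the mean of Srf, 30.1 ± 3.08, lay within the spread of Egr1. Ier2 came next at 9.59 ± 1.82, followed by Nab1 at 1.76 ± 0.201 and Nab2 at 1.45 ± 0.317. The mean of Nab1 lay within the spread of Nab2. In exercised MKO muscle Egr1 stood after Ier2, at 5.69 ± 1.93 CPM per kb, within the spread of Ier2 at 6.40 ± 1.88 and well under Srf at 29.0 ± 1.05. Nab1 and Nab2 were level there, at 1.73 ± 0.133 and 1.73 ± 0.0901 CPM per kb.

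The balance of Egr1 to its corepressor was described by the ratio of their counts within each library, which needs no scaling between libraries. The ratio contains the Egr1 values that gave the selection, so it is given with no test. Egr1 counts were 1.64 ± 0.245 times those of Nab2 in sedentary WT and 2.06 ± 0.229 times in sedentary MKO muscle. After the run the ratio was 28.5 ± 8.41 in WT and 4.96 ± 1.48 in MKO. Against Ier2, another immediate-early mRNA, the ratio of Egr1 was 1.07 ± 0.384 and 1.51 ± 0.439 at rest and 8.37 ± 2.82 and 2.61 ± 0.431 after the run, in WT and MKO. The lowest exercised WT library (5.70, replicate 4) lay above the highest exercised MKO library (3.06, replicate 4).

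**Figure D4:**
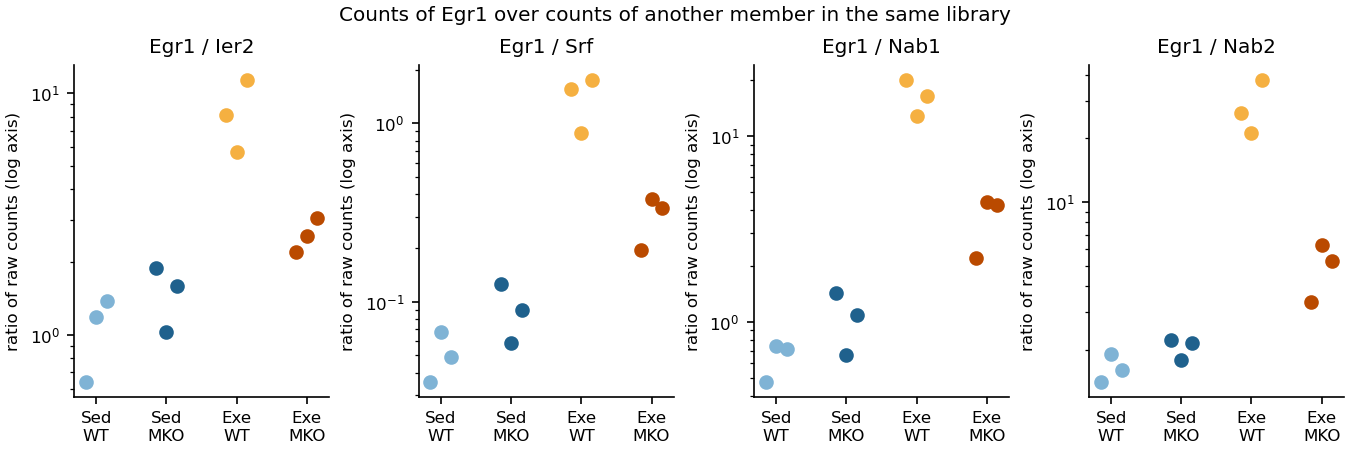
Ratio of Egr1 counts to those of Ier2, Srf, Nab1 and Nab2 in each library, on log axes, by group; each point is 1 library. In all 4 ratios the exercised WT libraries lie above the exercised MKO libraries, as with Egr1 over Nab2 at means of 28.5 and 4.96.

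The genes whose pattern was most like that of Egr1 were ranked by the root mean square difference of centred log2 CPM over the 12 libraries, which were also the libraries that set the pattern, so the values of these genes are a description with no test. The nearest were Zdbf2 (0.582), Impact (0.661), Fam83d (0.703), Gm17024 (0.732) and D030028A08Rik (0.741), against a median of 1.94 over all genes. Impact, which encodes a regulator of the GCN2 kinase, went from 8.96 ± 0.88 to 139 ± 52.1 CPM with the run in WT and from 9.0 ± 1.3 to 77.8 ± 12.8 in MKO muscle. Its log2 fold changes were 3.95 ± 0.25 and 3.11 ± 0.24. Zdbf2, an imprinted gene, went from 0.522 ± 0.202 to 8.80 ± 4.60 CPM in WT and from 0.933 ± 0.398 to 3.37 ± 1.47 in MKO. Its log2 fold changes were 4.05 ± 0.51 and 1.82 ± 0.50. Fam83d went from 3.16 ± 0.985 to 41.1 ± 3.75 CPM in WT and from 2.56 ± 1.37 to 20.8 ± 11.5 in MKO, and Gm17024 and D030028A08Rik, both low in counts (2 to 68 and 6 to 115 per library), had log2 fold changes of 4.26 ± 0.36 and 3.49 ± 0.33 in WT and of 2.04 ± 0.34 and 2.11 ± 0.35 in MKO. D030028A08Rik shares exon bases with other genes on the other strand, Cdk5rap3 and Sp2 among them. Of the members, Ier2 was the nearest to Egr1, in place 107 of 14485 (1.19), then Nab2 in place 494 (1.62), Egr2 in place 1124 (1.76), Nab1 in place 2174 (1.83) and Srf in place 2827 (1.85).

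Among the pathway genes around the set, the immediate-early targets of SRF had the highest medians of the lists. The counts of each list stand beside 8.24% of all genes passing in WT and 4.05% in MKO. Of 14 tested members 9 rose and none fell in WT (median log2 fold change 2.21 against -0.01 over all genes), and 7 rose and none fell in MKO (median 1.43 against 0.00). Fosb, Junb and Btg2, with the smallest p in WT, rose by 7.49 ± 0.61, 6.66 ± 0.44 and 4.56 ± 0.41 there and by 4.91 ± 0.61, 5.17 ± 0.41 and 3.86 ± 0.39 in MKO. Fosb went from 0.342 ± 0.30 to 62.8 ± 6.45 CPM in WT and from 0.481 ± 0.392 to 14.6 ± 10.3 in MKO muscle. Of 20 tested cytoskeletal targets of SRF, 1 rose (Actg1, 1.19 ± 0.16) and 1 fell (Tagln, -0.54 ± 0.15) in WT, with a median of -0.05, and 1 rose in MKO (Actg1, 0.87 ± 0.16), with a median of 0.11.

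Upstream of SRF, of the 5 tested SRF cofactors Elk3, an ETS partner that represses until ERK acts on it, fell by 1.49 ± 0.19 in WT and by 1.26 ± 0.19 in MKO, and the others did not pass (medians 0.08 and -0.26). Its level went from 11.1 ± 1.80 to 3.95 ± 0.549 CPM in WT muscle. Of 17 ERK cascade genes, 1 rose and 1 fell in WT, the latter Mapk3, which encodes ERK1 (-0.65 ± 0.12), and 0 passed in MKO (medians 0.06 and 0.03). Of 12 ERK feedback inhibitors, 2 rose and 3 fell in WT (median 0.11) and 0 rose and 1 fell in MKO (median -0.14). Dusp1, a MAP kinase phosphatase, rose by 1.82 ± 0.31 in WT and had 1.18 ± 0.31 in MKO (edgeR, adjusted p = 0.0555). Spry1, an inhibitor of receptor signalling to ERK, fell by 1.24 ± 0.10 in WT and by 0.70 ± 0.10 in MKO.

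Downstream, of 16 tested genes known as EGR targets in other cells, 3 rose and none fell in WT, with a median of 0.08, and 2 rose in MKO, with a median of 0.21. Thbs1, an extracellular matrix glycoprotein gene, rose by 2.46 in WT and by 1.87 in MKO on the log2 scale, and Cdkn1a, which encodes the cell cycle inhibitor p21, by 1.69 and 1.12. Bcl2l11, which encodes the proapoptotic protein BIM, rose by 1.64 in WT and had 1.13 in MKO (edgeR, adjusted p = 0.0555). Of 13 tested subunits of NuRD, a complex through which NAB proteins act in part, 1 rose in each genotype. It was Gatad2a, at 0.32 ± 0.07 in WT and 0.34 ± 0.07 in MKO, with list medians of 0.07 and 0.03. Of the 3 other IER genes tested, 1 rose in each genotype, Ier5l, at 2.67 ± 0.32 in WT and 2.50 ± 0.32 in MKO, with medians of 0.53 and 0.49. Of the pathway genes named, Elk3, Dusp1, Junb, Tagln and Thbs1 share 11 to 316 exon bases with counted genes on the other strand, so reads there cannot be assigned without the strand setting.

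Between genotypes, none of the 97 tested pathway genes passed at rest (edgeR, with 7 at an unadjusted p under 0.05, or 7.22% against 3.76% over all genes, and 0 with DESeq2 and with limma-voom). None passed between the exercised groups (edgeR, with 16 at an unadjusted p under 0.05, or 16.5% against 16.0% over all genes, 1 with DESeq2 and 0 with limma-voom). The immediate-early SRF targets had a median of -0.44 between the exercised groups, MKO minus WT, where all genes had 0.01. The SRF cofactors had -0.15, the ERK cascade genes -0.11, the ERK feedback inhibitors -0.06 and the other IER genes -0.02, while the EGR targets had 0.18, the cytoskeletal targets 0.05 and the NuRD subunits 0.04. Both comparisons of exercised with sedentary muscle and both comparisons of genotypes share libraries with each other, so these medians are not independent.

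**Figure D5:**
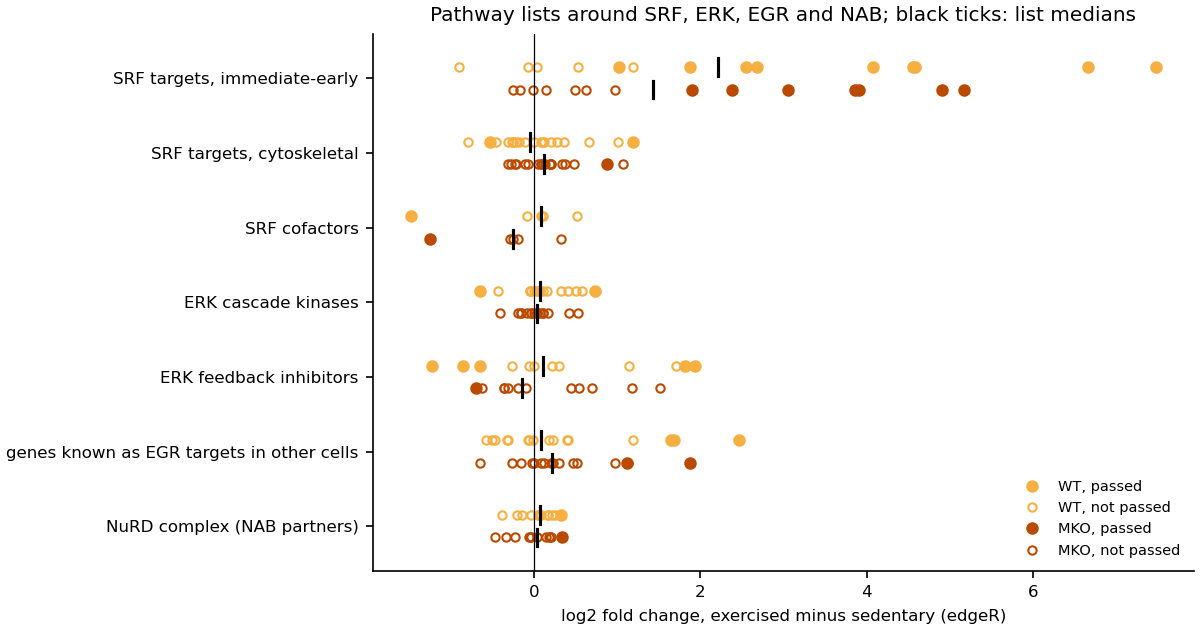
Log2 fold changes of the tested genes of 7 pathway lists with the run in WT and in MKO muscle; each point is 1 gene, filled where the adjusted p is under 0.05, and the black tick is the list median. The immediate-early SRF targets lie highest, with medians of 2.21 and 1.43, and the medians of the other 6 lists drawn lie between -0.26 and 0.21; the 3 other IER genes (medians 0.53 and 0.49) are not drawn.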

How the data were processed

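A total of 12 RNA sequencing libraries from mouse gastrocnemius, 3 per group, were used; the labels' protocols speak of 18 libraries, and the others were not analysed here. The values are raw counts per gene, as deposited by the authors. Per the submitters' processing notes the tools were StringTie 2.1.4, HISAT2 2.2.1, DESeq2 1.40.2, FastQC 0.12.1, SAMtools 1.9 and R 4.3, and the builds GRCm38.p6 and mm10. The sources used here do not give the counting tool or its strand setting. A misspelt column name was read as replicate 4 of exercised MKO, since no other library lacked a column. Symbols and exon lengths came from GENCODE M21, which named 42462 of 43432 identifiers; the rest held 0.0915% of the counts.

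Counts were fitted with edgeR 4.0.16 in R 4.3.3 (quasi-likelihood, TMM factors 0.928 to 1.15, filterByExpr with a minimum count of 10 and a minimum total of 15, 14486 genes, 8 residual degrees of freedom). The threshold was an adjusted p (Benjamini-Hochberg) under 0.05 over all genes, and standard errors came from the F statistic. Members were tested in the comparisons of exercised with sedentary muscle and between genotypes at rest. Alternatives were DESeq2 1.42.0, limma-voom (limma 3.58.1), other scalings, filters and libraries; leaving out the 3 outlying libraries together was added after seeing the data. The genes and lists were chosen with earlier results of these data known. Named genes are the 7 members, the targeted gene, the 5 genes most like Egr1 (log2 CPM with a prior count of 2) and, of each pathway list, up to 3 members with the smallest p among those that passed in WT. Of the genes named this way, 1 is not reported here. In simulated counts for the WT comparison, 63% of 2-fold and 95% of 4-fold changes were recovered, with 4 false calls among 14258 genes. No 2 replicates were duplicates. Nothing says that the samples are separate animals beyond their labels, so p-values measure the spread between these samples. Plots were made with Python 3.11.15 and matplotlib 3.10.9.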

Additional observations from a re-analysis of the deposited data

How the results depend on the processing

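Directions of Egr1 and Ier2 were the same under every alternative run, and so were the calls of both in WT muscle; Egr1 in MKO lost its call only without the 3 outlying libraries, and Ier2 in MKO in 3 settings. With the replicate number as a block, 602 genes passed with the run in WT, 361 in MKO, 0 at rest and 2 between the exercised groups, and Nab2 lost its call in WT (0.92, adjusted p = 0.0933). No pairing by number was seen, as 0 of 10 same-numbered pairs had a correlation over 0.1 (-0.15 to 0.076). With 3 libraries a group, this check cannot exclude a pairing. At rest 3 genes passed with DESeq2, 3 with limma-voom, 2 with only the compared groups and 3 without the 3 outlying libraries. Between the exercised groups 95 passed with DESeq2 and 2 with no filter. For the difference between responses 3 passed with DESeq2, 4 with limma-voom, 1 with total counts alone and 3 without the 3 outlying libraries. Without those 3 libraries 0 members passed with the run in MKO. With each library left out, 808 to 943 genes passed in WT, 316 to 503 in MKO, 1 to 3 at rest, 2 to 108 between the exercised groups and 0 to 3 for the difference, and 1 to 2 members in MKO.

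Small log2 differences changed sign. With the run in MKO, Egr2 had -0.03 with total counts alone, -0.031 with the block and -0.43 without the 3 libraries (-0.25 to 0.86 with each library left out). Between the exercised groups Egr2 had -0.34 with the block and -0.23 without the 3 libraries (-0.10 to 0.35), and Nab1 had 0.006 with total counts alone, 0.10 with the block and 0.13 without the 3 libraries (-0.103 to 0.068). At rest Nab1 had -0.018 to 0.14 with each library left out. For the difference between responses Nab1 had 0.10 with the block and 0.12 without the 3 libraries (-0.17 to 0.021), Nab2 -0.37 to 0.025, and Srf -0.022 with total counts alone and -0.03 with the block (-0.044 to 0.096). The cause was not tested. Depth limits Egr2 and Egr3, with at most 33 and 4 counts per library.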
